A study of Homo sapiens with 18 samples.

Results

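The interaction of DOT1L inhibition and sorted state was measured in 12 of the 18 libraries of the series, those made from cells sorted by NGFR and EGFR. It asks, for each gene, whether the difference between high and low cells under EPZ5676 differs from the same difference under DMSO. The cells were WM989, an established human melanoma line. EPZ5676 high and EPZ5676 low cells had been kept for 7 days in 4 µM EPZ5676, which blocks the enzyme DOT1L, and were those with high or with low levels of both receptors. DMSO high and DMSO low cells had received the solvent DMSO for the same time and were divided by the same receptors. Each of these 4 groups has 3 libraries of poly(A) RNA, and all come from 1 line, grown in the same medium. Whether the libraries of a group stem from different cultures is not stated, and p-values here cover only the spread among these libraries, which may be technical. The labels do not give the sort gates, so high and low are only as comparable between treatments as the gates were.

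DOT1L places methyl groups on lysine 79 of histone H3 in the bodies of transcribed genes. Melanoma lines such as WM989 hold a rare subpopulation with high levels of receptors such as NGFR, EGFR and AXL, which is known for surviving inhibitors of the BRAF and MAPK pathway. Most cells of such lines carry a melanocytic programme, driven by the transcription factors MITF and SOX10, with pigment genes such as DCT, MLANA and PMEL.

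The 12 libraries held 14153173 to 23756040 counts in genes. Of the sorted libraries, 4 stood apart in the share of reads that fell on no feature, which was 18.88% to 23.93% in EPZ5676 high replicates 1 and 2, EPZ5676 low replicate 1 and DMSO high replicate 3, and 12.8% to 15.17% in the other 8. The same 4 libraries carried more of RNAs that usually have no poly(A) tail. RMRP, the RNA of the ribonuclease MRP, had 32.2 and 62.0 CPM in EPZ5676 high replicates 1 and 2, 93.4 CPM in EPZ5676 low replicate 1 and 55.4 CPM in DMSO high replicate 3, with 0 to 0.938 CPM in the other 8. Of the 6 bulk libraries, which enter only where 17 or 18 libraries are named, EPZ5676 bulk replicates 1 and 3 had no-feature shares of 22.68% and 28.65%.

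The sort was visible in its own receptors, whose levels depend on the gates. NGFR, a neurotrophin receptor, had 640.2 to 762.1 CPM in EPZ5676 high libraries, against 532.1 to 612.4 CPM in DMSO high libraries. It had 3.62, 6.82 and 1.04 CPM in EPZ5676 low libraries, against 0.635, 1.6 and 0.759 CPM in DMSO low libraries. High and low cells were thus far apart under both treatments. EGFR, the receptor of epidermal growth factor, had 62, 55.6 and 68.6 CPM in EPZ5676 high libraries, against 84.8, 72.8 and 68.1 CPM in DMSO high libraries. It had 4.25, 4.66 and 4.79 CPM in EPZ5676 low libraries, against 2.25, 2.65 and 3.44 CPM in DMSO low libraries, so the high groups of the 2 treatments overlapped and the low groups did not. The interaction of NGFR was -1.64 ± 0.76 (log2 ± SE; 95% interval -3.38 to 0.10; adjusted p = 0.33), and that of EGFR was -0.99 ± 0.18 (adjusted p = 0.00173). The transcript of DOT1L averaged 182 ± 3.52 CPM in EPZ5676 high, 117 ± 3.37 CPM in EPZ5676 low, 206 ± 11.1 CPM in DMSO high and 125 ± 1.16 CPM in DMSO low libraries (SD, n = 3 each). EPZ5676 acts on the protein, and the interaction of the transcript was -0.09 ± 0.07 (95% interval -0.23 to 0.06; adjusted p = 0.605).

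The main pattern was a smaller gap between high and low cells under EPZ5676. Levels are CPM, read counts relative to library size after TMM scaling, and a gene is called where edgeR's quasi-likelihood test, adjusted by Benjamini-Hochberg over the 17821 genes tested, gives a p below 0.05. The interaction was called for 863 genes (4.84%), of which 432 were positive (2.42%) and 431 negative (2.42%). High and low cells differed in 9173 genes under EPZ5676 (51.5%) and in 10438 genes under DMSO (58.6%). Of the 863 genes, 657 (76.13%) had a called sort difference of the same sign under both treatments that was narrower under EPZ5676, and 109 (12.63%) had a called difference under DMSO only. The sort difference was wider under EPZ5676 in 42 (4.867%), called under EPZ5676 only in 37 (4.287%), and of opposite sign in 18 (2.086%). A positive interaction mostly meant a gene lower in high cells under DMSO (398 of 432), and a negative one a gene higher in high cells under DMSO (415 of 431). Negative interactions were larger, with a median of -0.60 against 0.37 for positive ones, and 111 of them (0.623% of genes tested) reached 2-fold, against 20 positive ones (0.112%).

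The number of calls rests on the libraries that set the spread. A fit of all 18 libraries, with DMSO bulk replicate 1 in the shared spread, called 58 genes, and a fit of 17 without that bulk library called 1072. Leaving out the 4 libraries with a high no-feature share left 218 calls, of which 196 were among the 863. All 863 genes kept the sign of their interaction in each of these 3 fits. In the fits of 17 and 18 libraries that was near fixed in advance. Bulk groups have their own means there and do not enter the interaction, so its size hardly changed (COL6A1 -1.24 in the main fit and with 18 libraries). A kept sign in those 2 fits therefore says little. The fit without the 4 libraries uses 8 of the same 12 sorted libraries, and the 863 genes were chosen by their interaction in all 12. A kept sign there was also likely in advance and is no independent support. Leaving out 1 sorted library at a time gave 497 calls (without EPZ5676 high replicate 2) to 1105 (without DMSO high replicate 2). It was also over 1.5 times lower without EPZ5676 low replicate 2 (523), EPZ5676 low replicate 3 (572) and DMSO low replicate 2 (563), and positive calls alone numbered 248 without EPZ5676 low replicate 1. Over all genes tested, the EPZ5676 high and DMSO high libraries did not overlap in 25.1%, and the EPZ5676 low and DMSO low libraries in 23.2%.

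**Figure D1:**
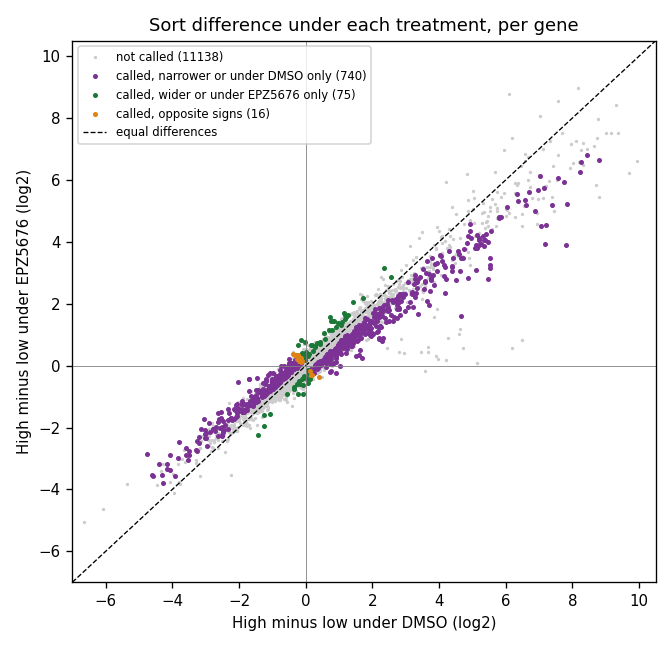
Each point is 1 gene that averaged 5 CPM or more in its highest group. The x axis is the log2 difference of high and low cells under DMSO, the y axis the same difference under EPZ5676, and the dashed line marks equal differences. Called genes (coloured) lie mostly between the dashed line and the horizontal line at 0, that is, with a smaller difference under EPZ5676. Grey points far right of the line include RNAs such as RMRP that were high in the 4 libraries with a high no-feature share.

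The interaction shares its libraries with the sort difference under each treatment, so genes were also taken by the average of their 2 sort differences, which the interaction does not enter and which was called for 65.8% of genes tested. There were 2163 state-high genes (average difference called and at least 1 on the log2 scale) and 957 state-low genes (called and at most -1). State-high genes had a median sort difference of 1.65 under EPZ5676 and 2.01 under DMSO, and a median interaction of -0.35, with 75.5% below 0. State-low genes had medians of -1.44 under EPZ5676 and -1.65 under DMSO, and a median interaction of 0.27, with 75.03% above 0. Over all genes tested the median interaction was -0.000275, and 5% of genes lay below -0.86 and 5% above 0.59. Among state-high genes 269 were called negative (12.44%) and 19 positive (0.8784%), and among state-low genes 138 were called positive (14.42%) and 4 negative (0.418%).

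The narrowing was larger where the sort difference was larger. State-high genes with an average difference of 1 to 2, of 2 to 4 and of at least 4 had median interactions of -0.26, -0.48 and -0.80. State-low genes had medians of 0.22, 0.42 and 0.61 in the same ranges, the last over 21 genes. In each range 73.89% to 77.91% of genes were narrower under EPZ5676.

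In state-high genes both sorts contributed to the narrowing, and in state-low genes only the high cells did. In state-high genes the median effect of EPZ5676 was -0.14 in high cells and 0.18 in low cells. In state-low genes it was 0.31 in high cells and 0.06 in low cells. The median log2 level of state-high genes, relative to the mean of the 12 libraries, was 0.87, 0.80 and 0.83 in EPZ5676 high and 0.97, 0.92 and 0.93 in DMSO high libraries. It was -0.80, -0.76 and -0.76 in EPZ5676 low and -0.94, -0.98 and -0.98 in DMSO low libraries. Every EPZ5676 library thus lay nearer the middle than every DMSO library of the same sort. For state-low genes the level was -0.65, -0.60 and -0.56 in EPZ5676 high and -0.87, -0.94 and -0.84 in DMSO high libraries, again without overlap. It was 0.82, 0.80 and 0.80 in EPZ5676 low and 0.75, 0.70 and 0.70 in DMSO low libraries, so here the low cells moved away from the middle under EPZ5676. In sorted pools a different share of cells in each state and a different RNA level per cell cannot be told apart.

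**Figure D2:**
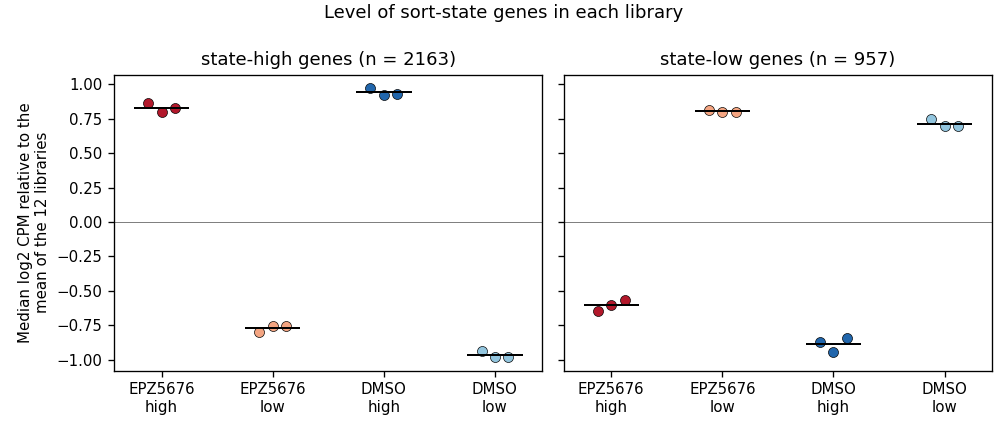
Each point is 1 library, and the y axis is the median log2 CPM of state-high genes (left) or state-low genes (right) relative to the mean of the 12 libraries. Bars are group means of 3 libraries. EPZ5676 high libraries lie closer to 0 than DMSO high libraries in both panels, and EPZ5676 low libraries lie closer to 0 than DMSO low libraries for state-high genes only.

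The size of the shift was also read on the linear scale. With the DMSO low mean set to 0% and the DMSO high mean to 100%, the median of 1083 state-high genes with at least 5 CPM in their highest group stood at 84.9% in EPZ5676 high cells (quartiles 71.0% and 101.9%) and at 2.25% in EPZ5676 low cells (quartiles -0.330% and 7.71%). The median of 537 state-low genes stood at 92.3% in EPZ5676 high cells (quartiles 85.3% and 97.0%) and at -0.216% in EPZ5676 low cells (quartiles -16.0% and 12.2%). The position thus differed widely between genes of the same set, and state-low genes went both ways in low cells.

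The effect of EPZ5676 was also taken within each sort. It was called in 1759 genes in high cells (9.87%), 950 higher (5.33%) and 809 lower (4.54%), and in 757 genes in low cells (4.25%), 480 higher (2.69%) and 277 lower (1.55%). Single libraries weighed on these counts. Without EPZ5676 high replicate 2 there were 537 higher and 394 lower genes in high cells. In low cells there were 259 higher and 100 lower without EPZ5676 low replicate 2, 314 and 163 without EPZ5676 low replicate 3, and 298 and 147 without DMSO low replicate 3. The lower genes of low cells numbered 140 without EPZ5676 low replicate 1 and 513 without DMSO high replicate 2. Of the 863 genes with a called interaction, 475 had a called EPZ5676 effect in high cells only, 176 in low cells only, 84 in both and 128 in neither. In 50 of them EPZ5676 lowered the gene in high cells and raised it in low cells, and in 19 it did the reverse. By contrast, 131 genes were higher under EPZ5676 in both sorts, 13 of them with a called interaction, and 49 were lower in both, 2 of them with a called interaction.

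**Figure D3:**
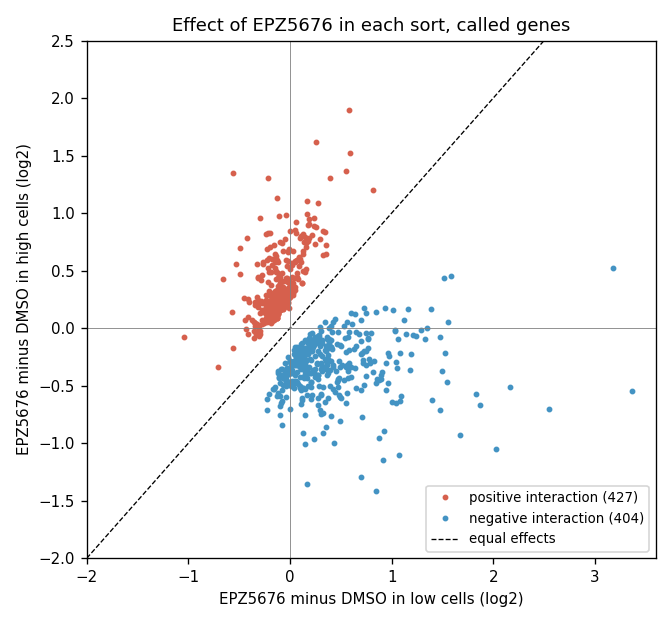
Each point is a gene with a called interaction that averaged 5 CPM or more in its highest group. The x axis is the log2 effect of EPZ5676 in low cells, the y axis its effect in high cells, and the dashed line marks equal effects. Genes with a positive interaction lie above the line, mostly higher under EPZ5676 in high cells, and those with a negative one lie below it, mostly lower in high cells or higher in low cells. The choice of genes by the interaction fixes the side of the line.

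Of 18 collagen genes tested 8 were called negative and 0 positive, and the list's median interaction was -0.51 against -0.000275 over all genes. Over all genes tested 4.84% were called, and among state-high genes 12.44% were called negative. The list's median sort difference was 3.95 under EPZ5676 and 4.46 under DMSO. State-high genes with an average difference of 2 to 4 and of at least 4 had median interactions of -0.48 and -0.80. A narrowing of this size was thus not particular to collagens. COL6A1, a chain of collagen VI, which forms beaded filaments in the matrix around cells, had 1575, 1374 and 1616 CPM in EPZ5676 high libraries, against 2866, 2957 and 2786 CPM in DMSO high libraries. It had 131, 138 and 140.5 CPM in EPZ5676 low libraries, against 111, 109.6 and 105 CPM in DMSO low libraries. No library crossed between treatments in either sort, and the ratio of high to low cells was 11.2-fold under EPZ5676 and 26.4-fold under DMSO (interaction -1.24 ± 0.07; adjusted p = 2.04e-11). COL6A2, a second chain of the same collagen, encoded like COL6A1 on chromosome 21, had 1789, 1590 and 1863 CPM in EPZ5676 high libraries, against 3626, 3514 and 3335 CPM in DMSO high libraries. It had 48.9, 49.6 and 46.4 CPM in EPZ5676 low libraries, against 35.5, 40.2 and 31.8 CPM in DMSO low libraries (interaction -1.43 ± 0.11; adjusted p = 2.37e-06). The third chain, COL6A3, had an interaction of -1.33 ± 0.13 (adjusted p = 6.62e-07), so all 3 chains were lower under EPZ5676 in high cells and higher in low cells, each past the test in both sorts. COL1A1, a chain of the fibrillar collagen I, had 492, 375 and 423 CPM in EPZ5676 high libraries, against 815, 1116 and 836 CPM in DMSO high libraries. It had 4.11, 4 and 4.84 CPM in EPZ5676 low libraries, against 1.71, 2.85 and 1.65 CPM in DMSO low libraries (interaction -2.17 ± 0.33; adjusted p = 0.00774). Its effect of EPZ5676 was -1.10 in high cells and 1.07 in low cells, and only the first passed the test. The other called collagens were COL5A2 (-0.86), COL5A3 (-0.96), COL15A1 (-0.61) and COL18A1 (95% interval -1.32 to -0.68). Without the 4 libraries of high no-feature share 6 of the 18 were called, and COL1A1 (adjusted p = 0.134) and COL18A1 (adjusted p = 0.0683) were not. In the fit of all 18 libraries 0 were called, and in that of 17 libraries 8 were.

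Other matrix and adhesion genes went both ways. Of 21 matrix genes, 6 were called negative and 3 positive (median -0.18). Over all genes tested 2.42% were called in each direction, and 12.44% of state-high genes were called negative. MMP2, a gelatinase, averaged 578 ± 53.4 CPM in EPZ5676 high, 14.1 ± 1.81 CPM in EPZ5676 low, 815 ± 12.8 CPM in DMSO high and 8.49 ± 0.906 CPM in DMSO low libraries (SD, n = 3 each; interaction -1.23 ± 0.13; adjusted p = 0.000128). FN1, fibronectin, had an interaction of -0.89 ± 0.15 (adjusted p = 0.0124; 0.273 without the 4 libraries of high no-feature share), with sort differences of 6.14 under EPZ5676 and 7.02 under DMSO. ANTXR2, a receptor of matrix proteins and of anthrax toxin, had an interaction of -0.92 ± 0.10 (adjusted p = 6.62e-07). SPARC, a secreted matrix-binding protein, differed in the other direction. It had 1087, 1094 and 1076 CPM in EPZ5676 high libraries, against 626, 601 and 669.8 CPM in DMSO high libraries. It had 1075, 1098 and 1075 CPM in EPZ5676 low libraries, against 834, 923 and 897 CPM in DMSO low libraries. SPARC was higher under EPZ5676 in both sorts, more so in high cells, and the deficit of high cells seen under DMSO (-0.48) was 0.00 under EPZ5676 (interaction 0.49 ± 0.07; adjusted p = 3.58e-05). Among 16 integrins, ITGA7, part of a laminin receptor, had 43.4, 40.5 and 44.6 CPM in EPZ5676 high libraries, against 76.5, 95.1 and 78.7 CPM in DMSO high libraries. It had 34, 33.9 and 36.2 CPM in EPZ5676 low libraries, against 31.4, 26.2 and 30.6 CPM in DMSO low libraries, and its sort difference was 0.30 under EPZ5676 and 1.51 under DMSO (interaction -1.20 ± 0.11; adjusted p = 3.49e-07). ITGA3 was called negative (-0.32), and ITGA4 (0.34) and ITGA6 (0.36) were called positive. Of the integrins 25% were called, against 4.84% of all genes tested. Without the 4 libraries of high no-feature share ITGA3 (adjusted p = 0.0643) and ITGA4 (adjusted p = 0.167) were not called.

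LIF, a cytokine of the interleukin 6 family, had 78.3, 73.3 and 76.7 CPM in EPZ5676 high libraries, against 119.7, 123 and 111 CPM in DMSO high libraries. It had 19.4, 20.8 and 18 CPM in EPZ5676 low libraries, against 8.5, 8.89 and 10.1 CPM in DMSO low libraries. LIF was lower in every EPZ5676 high library and higher in every EPZ5676 low library than in its DMSO counterparts, and the ratio of high to low cells was 3.91-fold under EPZ5676 and 12.8-fold under DMSO (interaction -1.71 ± 0.10; adjusted p = 3.01e-11). Of 32 receptor tyrosine kinases and their ligands, 11 were called negative and 1 positive (TYRO3). The median was -0.49, or -0.43 with 1 gene that has a group at 0 counts set to its bound. The share called negative was 2.42% over all genes tested and 12.44% among state-high genes. The list's median sort difference was 2.48 under EPZ5676 and 2.68 under DMSO. State-high genes with an average difference of 2 to 4 had a median interaction of -0.48, so a median of this size was not particular to the list. VEGFA, the vascular growth factor, had 428, 386 and 443 CPM in EPZ5676 high libraries, against 754, 750.3 and 747 CPM in DMSO high libraries. It had 51.5, 49.7 and 61.5 CPM in EPZ5676 low libraries, against 56.9, 58 and 56.9 CPM in DMSO low libraries, where the groups overlapped. Its effect of EPZ5676 was thus -0.84 in high cells and -0.08 in low cells, past the test in high cells only (interaction -0.76 ± 0.09; adjusted p = 1.31e-05). EPHA2, an ephrin receptor, showed the other form. It had 60.6, 50.9 and 52.1 CPM in EPZ5676 high libraries, against 50.8, 47.2 and 48.4 CPM in DMSO high libraries. It had 9.41, 9.68 and 9.77 CPM in EPZ5676 low libraries, against 5.18, 4.59 and 4.56 CPM in DMSO low libraries. Here the low cells were higher under EPZ5676 and the high cells did not pass the test (interaction -0.85 ± 0.13; adjusted p = 0.000146). FGFR1, a fibroblast growth factor receptor, had an interaction of -0.60 ± 0.08 (adjusted p = 3.73e-05) and PDGFRB, a platelet-derived growth factor receptor, one of -1.05 ± 0.20 (adjusted p = 0.00251); both were lower under EPZ5676 in high cells. PDGFRB had an adjusted p of 0.0504 without the 4 libraries of high no-feature share. Leaving out 1 library at a time gave 9 to 12 called genes in this list (median -0.318 without DMSO low replicate 1), and without the 4 libraries of high no-feature share 7 were called.

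The 18 markers of the drug-resistant rare state, which include both sort receptors, had 6 called negative and 0 positive, with a median of -0.85. The 6 were FGFR1, EGFR, VGF, PDGFRB, WNT5A and VEGFC. The share called negative was 2.42% over all genes tested and 12.44% among state-high genes. The list's median sort difference was 3.59 under EPZ5676 and 4.14 under DMSO. State-high genes with an average difference of 2 to 4 and of at least 4 had median interactions of -0.48 and -0.80. WNT5A, a secreted WNT ligand, had 35.7, 30.8 and 40.9 CPM in EPZ5676 high libraries, against 87.4, 90.4 and 86.4 CPM in DMSO high libraries. It had 0.558, 0.531 and 0.332 CPM in EPZ5676 low libraries, against 0.146, 0.349 and 0.357 CPM in DMSO low libraries, 18 counts in all 3 DMSO low libraries together (interaction -1.99 ± 0.39; adjusted p = 0.00258; -1.72 with adjusted p = 0.0770 without the 4 libraries of high no-feature share). AXL, a receptor tyrosine kinase, had 119, 112 and 83.4 CPM in EPZ5676 high libraries, against 119.5, 120.5 and 109 CPM in DMSO high libraries, which overlapped. It had 0.837, 1.06 and 0.379 CPM in EPZ5676 low libraries, against 0.146, 0.349 and 0.357 CPM in DMSO low libraries, and its interaction of -1.55 ± 0.61 was not called (95% interval -2.91 to -0.20; adjusted p = 0.22). NT5E, a surface nucleotidase, was not called either, at -0.21 ± 0.08 (95% interval -0.38 to -0.04; adjusted p = 0.175). AXL had 18 counts over the 3 DMSO low libraries, and its interval is wide.

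VGF, a precursor of secreted peptides, had no called sort difference under DMSO. It had 2914, 2640 and 2927 CPM in EPZ5676 high libraries, against 3490, 4025 and 3231 CPM in DMSO high libraries. It had 5309, 5796 and 4995 CPM in EPZ5676 low libraries, against 3774, 3757 and 3930 CPM in DMSO low libraries. Every EPZ5676 low library lay above every DMSO low library, every EPZ5676 high library lay below every DMSO high library, and the sort difference was -0.92 under EPZ5676 and -0.09 under DMSO, called only under EPZ5676 (interaction -0.83 ± 0.11; adjusted p = 0.00228).

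Of 18 genes read out by the MAPK pathway, 8 were called negative and 0 positive (median -0.19). The share called negative was 2.42% over all genes tested and 12.44% among state-high genes. CCND1, cyclin D1, which drives entry into S phase, had 3003, 2769 and 2735 CPM in EPZ5676 high libraries, against 3993, 4106 and 3900 CPM in DMSO high libraries. It had 399, 411 and 402 CPM in EPZ5676 low libraries, against 409.7, 415 and 412 CPM in DMSO low libraries. The high groups did not overlap and the low groups did (interaction -0.47 ± 0.06; adjusted p = 1.14e-05). ETV1, a transcription factor of the ETS family, had -0.68 ± 0.09 (adjusted p = 2.18e-05), DUSP4, a phosphatase that dampens ERK, -0.36 ± 0.07 (adjusted p = 0.00105), and DUSP6, a related phosphatase, -0.46 ± 0.08 (adjusted p = 0.0013). All 3 were lower under EPZ5676 in high cells and did not pass the test in low cells. Without the 4 libraries of high no-feature share 3 of the 18 were called, and in the fit of all 18 libraries 1 was. Of 20 genes of the AP-1 and immediate early class, 4 had a called negative interaction, EGR1, ATF3, IER2 and NR4A1 (median -0.31). NR4A1, a nuclear receptor, was lower in high cells and more so under EPZ5676, so its difference was wider. With 1 library left out the count of called AP-1 and immediate early genes ran from 2 to 6. It was 2 without EPZ5676 high replicate 2 or 3, EPZ5676 low replicate 2, DMSO high replicate 1 or DMSO low replicate 3. In the fit of all 18 libraries 0 were called.

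Of 15 genes in the list of cyclins, CDKs and their inhibitors, 4 were called negative and 1 positive (median -0.04). Over all genes tested 2.42% were called in each direction. CDKN1A, CDKN2C and CDKN1B, all inhibitors, were called negative beside CCND1, and E2F3 was called positive (0.36). CDKN1A, which encodes the inhibitor p21, had 78.8, 69 and 77.2 CPM in EPZ5676 high libraries, against 133, 124 and 128 CPM in DMSO high libraries. It had 4.88, 5.96 and 4.41 CPM in EPZ5676 low libraries, against 4, 2.2 and 3.22 CPM in DMSO low libraries. High cells were lower and low cells higher under EPZ5676, each past the test (interaction -1.48 ± 0.19; adjusted p = 0.000136). CDKN2C, an inhibitor of CDK4 and CDK6, had an interaction of -0.58 ± 0.10 and CDKN1B, which encodes p27, one of -0.36 ± 0.08. Without the 4 libraries of high no-feature share CDKN2C (adjusted p = 0.0576) and CDKN1B (adjusted p = 0.527) were not called. Of 39 DNA replication genes 10 were called positive and 0 negative, 37 had a positive interaction, and the median was 0.19. The 10 make up 25.64% of the list, against 2.42% called positive over all genes tested. The calls were MCM2, MCM3, MCM4, MCM5, MCM6 and MCM10, subunits of or partners to the replicative helicase, GINS2 of the same machine, the chromatin assembly factors CHAF1A and CHAF1B, and the clamp loader subunit RFC2. MCM2 had 274, 259 and 253 CPM in EPZ5676 high libraries, against 248, 254 and 245 CPM in DMSO high libraries. It had 242, 246 and 242 CPM in EPZ5676 low libraries, against 274, 283 and 283 CPM in DMSO low libraries. Its sort difference was 0.11 under EPZ5676 and -0.17 under DMSO, called under DMSO only (interaction 0.28 ± 0.06; adjusted p = 0.0106). GINS2 had the largest interaction of these 10, 0.47 ± 0.10 (adjusted p = 0.00449), being higher under EPZ5676 in high cells and lower in low cells. The number of calls was unstable, from 3 (without EPZ5676 high replicate 2 or EPZ5676 low replicate 3) to 14 with 1 library left out and 0 without the 4 libraries of high no-feature share, where the median was 0.19. GINS2, MCM2 and MCM6 kept the call with each single library left out, and the other 7 lost it at least once. Of 52 mitosis genes 1 was called (CCNA2, 0.30, a call lost with 6 of the 12 libraries left out in turn), 40 had a negative interaction and the median was -0.08.

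Over all genes tested 2.42% were called in each direction, and 14.42% of state-low genes were called positive. State-low genes whose average difference was 1 to 2 in size had a median interaction of 0.22. Pigment genes had median sort differences of -1.51 under EPZ5676 and -1.70 under DMSO. Of 24 pigment genes, 7 were called positive and 3 negative (median 0.26). These 10 calls became 6 without EPZ5676 low replicate 1, 13 at most with another library left out, 8 without the 4 libraries of high no-feature share and 2 in the fit of all 18 libraries. DCT, which converts an intermediate of melanin synthesis, had 145, 147 and 163 CPM in EPZ5676 high libraries, against 62.1, 56.3 and 57.7 CPM in DMSO high libraries. It had 1532, 1492 and 1568 CPM in EPZ5676 low libraries, against 1083, 1004 and 1054 CPM in DMSO low libraries. DCT was thus higher under EPZ5676 in both sorts, by 1.37 in high cells and 0.55 in low cells, and the larger rise in high cells gave the interaction of 0.82 ± 0.07 (adjusted p = 5.13e-08). MLANA, a protein of early melanosomes, had 61.8, 70.4 and 71.9 CPM in EPZ5676 high libraries, against 56.7, 57.6 and 70.9 CPM in DMSO high libraries, which overlapped. It had 376, 389.9 and 377 CPM in EPZ5676 low libraries, against 541, 580.3 and 571 CPM in DMSO low libraries. Its narrowing came from low cells, where it was lower under EPZ5676 (-0.57), with an interaction of 0.71 ± 0.10 (adjusted p = 0.000217). PMEL, which builds the fibrils of the melanosome, had an interaction of 0.36 ± 0.07 (adjusted p = 0.00359) and was higher under EPZ5676 in both sorts (0.72 in high cells and 0.36 in low cells). MITF, the lineage's transcription factor, had 0.36 ± 0.08 (adjusted p = 0.00949), with 220.4, 232 and 259 CPM in EPZ5676 high libraries, against 196, 179 and 200.2 CPM in DMSO high libraries. SOX10, a regulator of MITF, was not called (0.26 ± 0.17; 95% interval -0.12 to 0.64; adjusted p = 0.505; adjusted p = 0.0457 without the 4 libraries of high no-feature share), nor was TYR, the tyrosinase (0.34 ± 0.14; adjusted p = 0.229). The 3 negative calls were MLPH (-0.44) and RAB27A, which move melanosomes to the cell edge, and TBX2, a transcription factor.

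The promoters of COL6A2, a gene called negative, and DCT, a gene called positive, are shown to set one of each direction side by side. They are the 250 bases before the start, on GRCh38.p14, at chr21:46097862-46098111 (plus strand) and chr13:94549407-94549656 (minus strand), with a match to a searched motif in capitals.
COL6A2: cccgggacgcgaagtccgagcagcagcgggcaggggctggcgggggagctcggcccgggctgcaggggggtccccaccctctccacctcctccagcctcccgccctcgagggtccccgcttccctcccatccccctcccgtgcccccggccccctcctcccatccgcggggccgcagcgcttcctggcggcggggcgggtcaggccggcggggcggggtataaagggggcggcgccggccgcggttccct
DCT: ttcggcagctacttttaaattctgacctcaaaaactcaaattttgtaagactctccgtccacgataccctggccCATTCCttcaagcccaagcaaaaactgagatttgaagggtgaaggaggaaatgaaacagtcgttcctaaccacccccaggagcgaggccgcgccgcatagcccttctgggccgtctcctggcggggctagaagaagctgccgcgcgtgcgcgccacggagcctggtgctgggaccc
The motifs searched on both strands were TGANTCA, the site of AP-1, GGAATG, the site of TEAD factors, and CATGTG, the M-box of pigment genes. In these windows DCT held 1 match, to GGAATG read on the other strand (CATTCC, starting 176 bases before the start), and COL6A2 held none. The windows of BIN1, called negative, and MLANA, called positive, were also searched and held no match. Only 1 start per gene was taken, and whether WM989 cells use it was not tested. Any other start of a gene was not searched, so a motif missing here may stand in another promoter of that gene. A promoter was at hand for 659 of the 863 called genes. TGANTCA stood in 4.02% of promoters of genes called negative, 5.06% of those called positive and 4.07% of those tested. GGAATG stood in 9.29%, 12.5% and 9.42% of the same 3 sets, and CATGTG in 5.26%, 7.44% and 5.74%. Over all promoters in the table the shares were 6.6%, 11.9% and 9.54%. A match in such a window is a description and no evidence of binding.

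Over all genes tested 2.42% were called in each direction. Melanocyte growth receptors and lineage factors outside pigment synthesis were called positive in 5 of 13 and negative in 0 (median 0.21). The count was 3 without EPZ5676 high replicate 1, EPZ5676 low replicate 3, DMSO high replicate 1 or 2, or DMSO low replicate 1 or 3, and the median was 0.0851 without DMSO high replicate 2 and 0.129 without EPZ5676 high replicate 3. EDNRB, an endothelin receptor, had 30.4, 34.7 and 32.6 CPM in EPZ5676 high libraries, against 20.8, 17.7 and 19.3 CPM in DMSO high libraries. It had 43.6, 43.2 and 45.6 CPM in EPZ5676 low libraries, against 38.5, 40.4 and 38.5 CPM in DMSO low libraries (interaction 0.59 ± 0.11; adjusted p = 0.00113; 0.07 without the 4 libraries of high no-feature share). High cells rose without overlap and low cells did not pass the test. SOX6, a relative of SOX10, had an interaction of 0.53 ± 0.10 (adjusted p = 0.0012). Of 13 genes of the neural crest-like state, 4 were called positive and 1 negative (median 0.23, or 0.19 with 1 gene set to its bound).

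**Figure D4:**
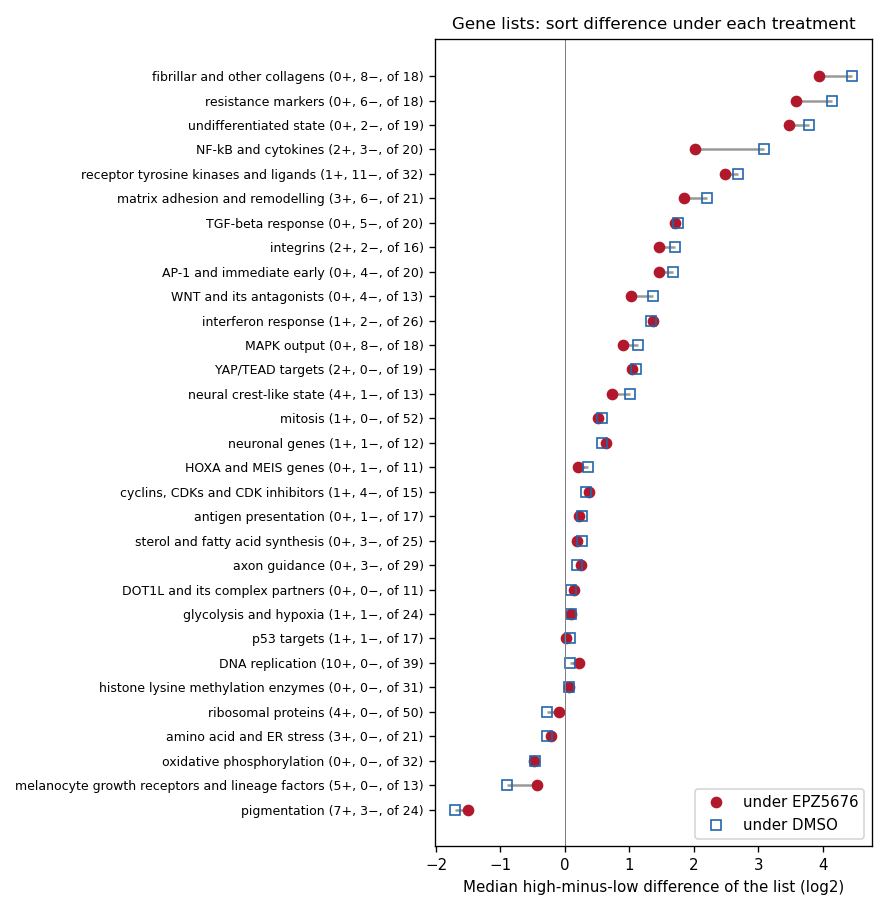
Each row is a gene list with at least 10 tested genes. The x axis is the median log2 difference of high and low cells under EPZ5676 (red circles) and under DMSO (blue squares), and the numbers beside each name are the genes called with a positive (+) or negative (−) interaction of those tested. Collagens and resistance markers lie at 3.95 and 3.59 under EPZ5676, against 4.46 and 4.14 under DMSO, and pigmentation lies at -1.51 under EPZ5676, against -1.70 under DMSO.

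Further named genes ranked high by p or by size. BIN1, an adaptor that bends membranes, had 46.6, 41.2 and 49.5 CPM in EPZ5676 high libraries, against 88.2, 94.1 and 83.6 CPM in DMSO high libraries. It had 8.57, 10.2 and 8.15 CPM in EPZ5676 low libraries, against 4.69, 5.64 and 4.42 CPM in DMSO low libraries. The ratio of high to low cells was 5.06-fold under EPZ5676 and 18.1-fold under DMSO (interaction -1.83 ± 0.14; adjusted p = 4.32e-09). MBP, the myelin basic protein, had no called sort difference under EPZ5676. It had 325, 306 and 337 CPM in EPZ5676 high libraries, against 494, 482 and 468 CPM in DMSO high libraries. It had 332, 329 and 326 CPM in EPZ5676 low libraries, against 241, 244 and 223 CPM in DMSO low libraries. Both EPZ5676 groups shared one range between the 2 DMSO groups, and the difference was -0.03 under EPZ5676 and 1.03 under DMSO (interaction -1.06 ± 0.07; adjusted p = 9.04e-11). MBP was among the genes that were also called in the fit of all 18 libraries (adjusted p = 7.19e-05). SLIT2, a ligand of ROBO receptors, had -1.32 ± 0.14, TNFRSF21, a death receptor, -0.95 ± 0.10, and CHST1, a sulphotransferase, -1.01 ± 0.10. Among the genes named by size, FAIM2, an inhibitor of Fas signalling, had an interaction of -3.08 ± 0.44 (adjusted p = 7.11e-05), resting on 16 counts over the 3 DMSO low libraries. ICOSLG, a ligand of the T cell receptor ICOS, had 12.4, 9.76 and 11.1 CPM in EPZ5676 high libraries, against 30.8, 30.7 and 27.3 CPM in DMSO high libraries (interaction -2.27 ± 0.30; adjusted p = 3.15e-05).

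On the positive side ETS1, a transcription factor, had 231, 236 and 213 CPM in EPZ5676 high libraries, against 157, 163 and 166 CPM in DMSO high libraries. It had 258, 244 and 251 CPM in EPZ5676 low libraries, against 278, 275 and 274 CPM in DMSO low libraries. The deficit of high cells was -0.14 under EPZ5676 and -0.77 under DMSO (interaction 0.62 ± 0.07; adjusted p = 1.82e-06). HMOX1, the haem-degrading oxygenase, had 50.8, 57.4 and 44.2 CPM in EPZ5676 high libraries, against 29.8, 28.3 and 30.7 CPM in DMSO high libraries. It had 59.5, 62.5 and 59.4 CPM in EPZ5676 low libraries, against 59.8, 61.9 and 65.9 CPM in DMSO low libraries. Its low groups overlapped and its high groups did not (interaction 0.83 ± 0.11; adjusted p = 2.18e-05). FRZB, a secreted WNT antagonist, had 22.9, 28.9 and 23 CPM in EPZ5676 high libraries, against 8.37, 11.7 and 14.1 CPM in DMSO high libraries (interaction 1.26 ± 0.18; adjusted p = 0.000383). TMC8, a transmembrane protein of the channel-like family, had 5.11, 4.77 and 5.6 CPM in EPZ5676 high libraries, against 1.26, 1.24 and 1.72 CPM in DMSO high libraries (interaction 1.31 ± 0.21; adjusted p = 0.000268). NRXN3, a synaptic adhesion protein, had 1.06 ± 0.18 (adjusted p = 0.000426). SLC7A5, an amino acid transporter, and MAP2K3, a kinase of the p38 pathway, had 0.53 ± 0.08 and 0.60 ± 0.08, but both have near-identical copies with which the counting may have divided reads.

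**Figure D5:**
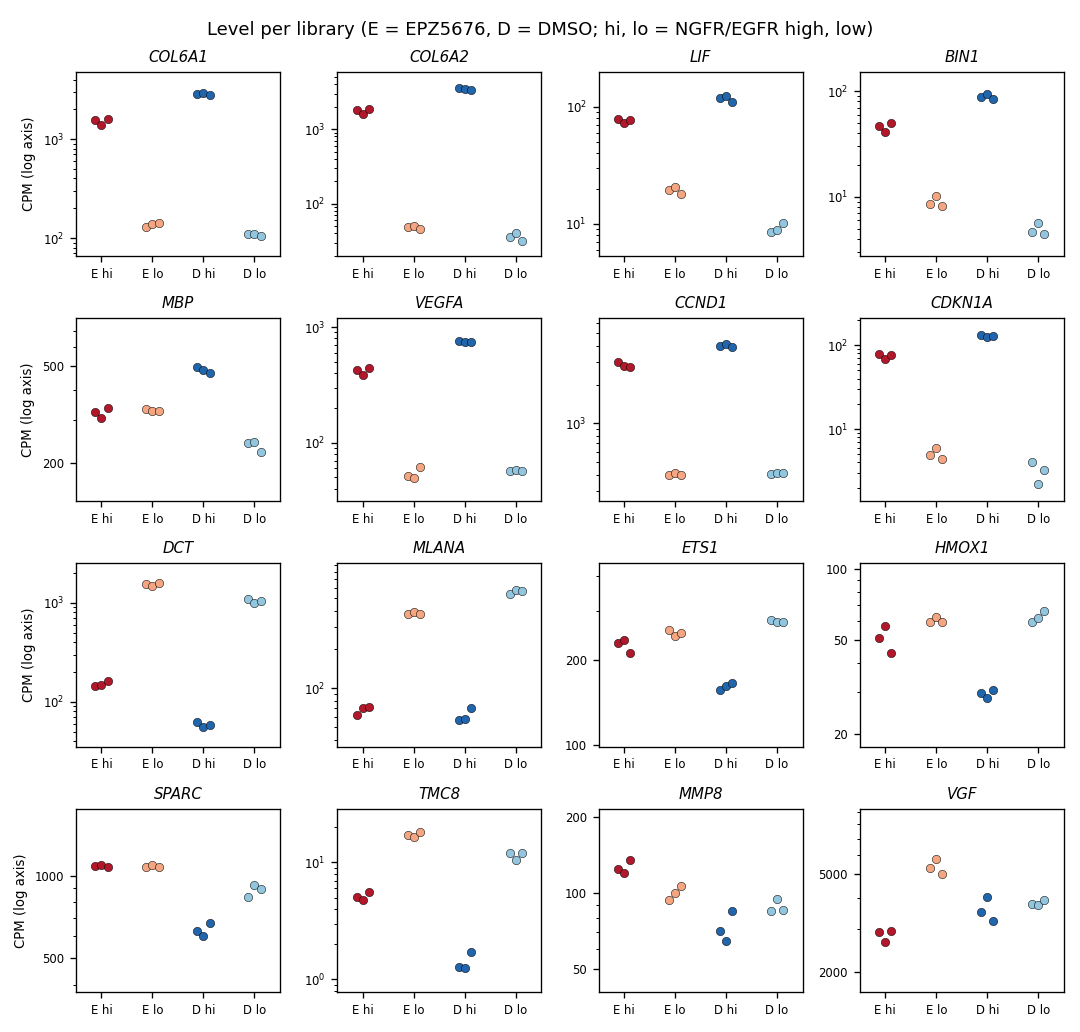
Each panel is 1 gene and each point 1 library, with CPM on a log axis that differs between panels. Groups run from EPZ5676 high and EPZ5676 low to DMSO high and DMSO low. The gap between high and low cells is smaller under EPZ5676 for COL6A1 to HMOX1 and for TMC8, closed for SPARC, of opposite sign for MMP8, and open only under EPZ5676 for VGF.

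A minority of genes went against the narrowing. In 18 genes the sort difference was called with opposite signs under the 2 treatments. MMP8, a collagenase, had 124, 119.8 and 135 CPM in EPZ5676 high libraries, against 70.8, 64.8 and 84.6 CPM in DMSO high libraries. It had 94.2, 100.4 and 107 CPM in EPZ5676 low libraries, against 84.6, 95.1 and 85.4 CPM in DMSO low libraries. High cells stood above low cells under EPZ5676 without overlap, and the sort difference was 0.33 under EPZ5676 and -0.27 under DMSO (interaction 0.60 ± 0.11; adjusted p = 0.0028). PLAT, the tissue plasminogen activator, had sort differences of 0.35 under EPZ5676 and -0.24 under DMSO, and TSPAN9, a tetraspanin, of -0.31 under EPZ5676 and 0.18 under DMSO. Among the 42 genes whose difference was wider, SORBS2, CNN3 and ADAMTS9 are named after their values were seen. SORBS2, an adaptor of the actin cytoskeleton, had 99.1, 100.4 and 92.7 CPM in EPZ5676 high libraries, against 62.3, 62 and 66.8 CPM in DMSO high libraries. It had 10.2, 12.7 and 9.62 CPM in EPZ5676 low libraries, against 10.9, 13.2 and 13.6 CPM in DMSO low libraries. The ratio of high to low cells was 8.92-fold under EPZ5676 and 5.05-fold under DMSO (interaction 0.82 ± 0.13; adjusted p = 0.000202). CNN3, an actin-binding calponin, had 0.52 ± 0.08 (adjusted p = 0.000243), and ADAMTS9, a metalloprotease that cuts proteoglycans, 0.65 ± 0.11 (adjusted p = 0.000484). All 3 were higher under EPZ5676 in high cells and did not pass the test in low cells. Without the 4 libraries of high no-feature share, SORBS2 (adjusted p = 0.0539) and CNN3 (adjusted p = 0.0996) were not called.

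Further lists had 0 to 5 calls each, beside 4.84% called over all genes tested. In lists of 11 to 32 genes, 0 calls lie near that share. DOT1L and its complex partners had 0 of 11 called, and enzymes of histone lysine methylation 0 of 31, with medians of -0.01 and -0.01. AFF4, AFF3 and MLLT3, partners of DOT1L in elongation complexes, had the smallest p of the first list, with interactions of -0.15 ± 0.09 (adjusted p = 0.393), -0.17 ± 0.13 (adjusted p = 0.576) and -0.24 ± 0.19 (adjusted p = 0.592). Oxidative phosphorylation had 0 of 32 (median 0.04), interferon response 3 of 26 (median -0.02) and antigen presentation 1 of 17, NLRC5 (-0.98; adjusted p = 0.0535 without the 4 libraries of high no-feature share). Ribosomal proteins had 4 of 50 called, all positive, and 48 of 50 interactions above 0 (median 0.17). The count ran from 1 to 10 with 1 library left out (1 without EPZ5676 high replicate 2 or 3, EPZ5676 low replicate 1 or 3, or DMSO high replicate 1 or DMSO low replicate 2, and 10 without DMSO high replicate 2) and was 0 without the 4 libraries of high no-feature share. Many of these genes have pseudogene copies that may share reads. TGF-beta response had 5 of 20 called (25%, above the share over all genes), all negative (median -0.30). Among state-high genes 12.44% were called negative. The list's median sort difference was 1.71 under EPZ5676 and 1.76 under DMSO. State-high genes with an average difference of 1 to 2 had a median interaction of -0.26, so a median of this size was not particular to the list. TGFBR2 stood at -0.71 ± 0.10 and TGFB1 at -0.52 ± 0.09. The count was 3 without EPZ5676 high replicate 2 or EPZ5676 low replicate 2, and TGFB1 had an adjusted p of 0.126 without the 4 libraries of high no-feature share. The lists of undifferentiated state and YAP/TEAD targets had 2 calls each (10.53% of either list). SLIT2 and ITGA3 were negative in the first, TEAD4 and AMOTL2 positive in the second. AMOTL2 lost its call with 9 of the 12 libraries left out in turn.

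Markers of other cell types were checked beside the collagens. The 9 fibroblast markers, which include COL1A1, COL1A2, COL3A1 and PDGFRA, summed to 591.8 to 720.6 CPM in EPZ5676 high, 98.99 to 102.9 CPM in EPZ5676 low, 1036 to 1358 CPM in DMSO high and 72.8 to 77.0 CPM in DMSO low libraries, with 0 of 9 at 0 counts in all 12 libraries. Of the 7 tested, COL1A1 and PDGFRA were called negative, and of 6 endothelial markers tested VWF (-1.05) and KDR (-1.74) were. The share called negative was 2.42% over all genes tested and 12.44% among state-high genes. The call of PDGFRA was lost with 6 single libraries left out in turn and that of KDR with 2 (EPZ5676 low replicate 3 and DMSO low replicate 2), and none of the 4 was called without the 4 libraries of high no-feature share. Keratinocyte, leukocyte and endothelial markers summed to at most 42.5, 6.48 and 38.2 CPM in any library. The keratinocyte markers KRT1, KRT6A and KRT17 and the endothelial marker PECAM1 had 0 counts in all 12. The part of other cells in these results was not tested.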

How the data were processed

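Poly(A) RNA of WM989 cells was sequenced in pairs, per the labels' protocols. Reads were aligned with STAR to hg19 and counted with HTSeq, per the submitters' processing notes; versions and the strand setting are not given in the sources used here, so antisense overlaps cannot be told apart. The authors deposited raw counts per gene for each library, 63677 genes in all. Summary lines (no feature, ambiguous) were left out of library sizes. The 12 sorted libraries were fitted with edgeR 4.0.16 (TMM, filterByExpr, robust quasi-likelihood test, limma 3.58.1, R 4.3.3), with 4 group means and no covariate, on 17821 genes, with Benjamini-Hochberg adjustment. The interaction is (EPZ5676 high − EPZ5676 low) − (DMSO high − DMSO low). The fit was tested on simulated data. It found 34.3% of interactions of 1.5-fold, 56.7% of those of 2-fold and 78.8% of those of 4-fold. Of its calls there 6.5% were false. Many true interactions of modest size can thus go uncalled. Summaries used pandas 2.3.3 and numpy 2.4.6 under Python 3.11.15, and plots matplotlib 3.10.9.

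Named genes were NGFR, EGFR and DOT1L, the 15 called genes with the largest interaction per direction at 5 CPM or more in the highest group, the 10 with the smallest p, up to 10 with opposite sort differences, up to 4 called per list, and 3 per list, called or not, of resistance markers, pigmentation and DOT1L partners. A further 30 genes, and those named beside a short count, were chosen after their values were seen. The members and the 35 gene lists were chosen with earlier results of these data known. Promoters are from RefSeq on GRCh38.p14, while the counts are on hg19. Alternatives were RLE and library-size scaling, no filter and a 5 CPM filter, DESeq2 1.42.0, limma-voom, no robust estimation, all 18 libraries, no-feature share as covariate or as a reason to leave libraries out, a replicate block, and each library left out. The fit of 17 libraries was added after seeing the data.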

Additional observations from a re-analysis of the deposited data

Results flagged for a closer look

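The sort difference itself differed between the treatments in 863 genes by the test of that difference, the interaction. High and low cells are the 2 groups whose response to EPZ5676 differed there. The largest part, 657 genes, had a sort difference that was narrower under EPZ5676, and its explanation was not tested.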

How the results depend on the processing

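All 863 genes kept the sign of their interaction in each alternative that tested them (811 at 5 CPM or more). These genes were chosen by their interaction in the sorted libraries, and each alternative refits all or part of the same libraries. A kept sign was thus near fixed in advance and says little. The number called was 859 with RLE, 870 with library size, 930 without a filter, 889 at 5 CPM or more, 999 with DESeq2, 777 with limma-voom, 723 without robust estimation and 852 with the no-feature share as covariate. It was 821 with a replicate block. Of 18 pairs of libraries with the same number, 3 correlated above 0.1 (r from -0.356 to 0.305). Libraries of different number that both had a high no-feature share also correlated (r = 0.333 for EPZ5676 low replicate 1 and DMSO high replicate 3). These correlations therefore cannot decide whether libraries of the same number share a culture or sort day. With all 18 libraries 58 genes were called (37 positive, 21 negative), and EPZ5676 effects numbered 354 higher and 189 lower in high cells and 129 and 59 in low cells. Without the 4 libraries of high no-feature share 218 were called (101 and 117), with 235 and 139 in high cells and 266 and 95 in low cells. EPZ5676 high then has 1 library, assumed to vary like the others. The interactions of AFF4 and MLLT3, not called in the main fit, were 0.000261 and 0.0331 there. In the main fit they were -0.15 ± 0.09 and -0.24 ± 0.19, and the cause of the difference was not tested. At 5 CPM or more the median of state-high genes was -0.319. With each library left out in turn, calls ran from 497 to 1105, positive from 237 to 587, negative from 258 to 518, higher in high cells from 537 to 974, lower from 394 to 856, higher in low cells from 259 to 670 and lower from 100 to 513. The median of state-high genes ran from -0.378 to -0.299 and that of state-low genes from 0.21 to 0.294. Of 131 genes named by rule and called, 41 lost the call at least once. Genes with few counts in low cells have wide intervals.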
